A study of Mus musculus with 6 samples.

Results

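The miR-191 and miR-425 cluster is a pair of mouse miRNA hairpins, Mir191 and Mir425, whose reads were counted by arm in small RNA libraries of bone marrow monocytes/macrophages (BMMs). The members are the 4 arms of these 2 hairpins, miR-191-5p, miR-191-3p, miR-425-5p and miR-425-3p, out of 964 arms with reads from 1174 annotated mouse hairpins. A read belonged to an arm when it was at least 18 nt long and matched the hairpin exactly, with up to 3 unmatched bases at its 3′ end. The cluster was picked by name, together with its read counts, stoichiometry and arm ratios, so these quantities are given as a description and support nothing.

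The 6 libraries came from wild-type C57BL/6 BMMs cultured in vitro, 3 that received PBS (control) and 3 that received 5 pg/ml LPS for 4 h. LPS is the endotoxin that Gram-negative bacteria carry on their surface. The mice were male and 7 to 10 weeks old. The sources do not say how many mice gave the cells or whether the libraries of a group came from separate cultures, so the spread between samples may be technical.

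In miRNA biogenesis, the enzyme Drosha cuts a hairpin out of a long transcript, Dicer removes the loop, and usually the strand of a single arm stays in an Argonaute protein. Bases 2 to 8 of that strand, the seed, pair with target mRNAs, so a shift of the 5′ end changes the seed. miR-191-5p is widely detected across cell types and is often used as a reference miRNA in quantitative PCR. In humans, miR-425-5p is known to repress NPPA, the gene of atrial natriuretic peptide. The hairpins are thought to be cut from a common transcript of the Dalrd3 locus, which is why their ratio in a sample is of interest.

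In the GRCm38 build, Mir191 lies on the plus strand at chr9:108568319-108568392 and Mir425 at chr9:108568777-108568861, with 384 bases between them. In the GENCODE M21 annotation both lie within the exon of the long intergenic RNA transcript 4833445I07Rik-201 (chr9:108567533-108569174). Mir191 also falls in the intron of a second transcript of that gene. In this annotation Dalrd3 itself starts 1025 bases past the end of Mir425, whereas the RefSeq gene record of Dalrd3 (chr9:108567484-108572773) spans both hairpins. A further annotated hairpin, Gm24083, lies opposite Mir191 on the minus strand. No library held a read of at least 18 nt that matched the opposite strand of either hairpin exactly, or a sense read from outside both arms.

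The 4 mature sequences of RefSeq (GRCm38.p6) are shown 5′ to 3′ with the seed in capitals, because the seeds show which arms could share targets.
miR-191-5p: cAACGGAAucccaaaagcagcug
miR-191-3p: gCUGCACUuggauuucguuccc
miR-425-5p: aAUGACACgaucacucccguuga
miR-425-3p: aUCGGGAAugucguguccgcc

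No seed was shared between the 4 arms, and none of the other mature sequences in the RefSeq table had the seed of miR-191-5p, miR-191-3p or miR-425-3p. The seed of miR-425-5p is also that of miR-489-3p. The cluster therefore brings together unrelated seeds, unlike clusters made of members of a single seed family.

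The libraries held 2201520 to 17691405 reads, of which 1496303 to 10913216 were hairpin reads. LPS replicate 2 was the deepest library and stood apart. Of its distinct sequences, 18.6% had a count of 1, against 67.1% to 74.6% in the other 5 libraries. Markers of myeloid cells fixed for this check were present in all libraries, with all 5 arms detected and a summed level of 161522 to 203537 RPM (reads per 1000000 hairpin reads) in the control samples and 160014 to 216208 in the LPS samples. Among these, miR-146a-5p stood at 55499 in LPS replicate 2 and at 2826 to 4522 in the other libraries. miR-142-3p was also highest in LPS replicate 2 (7767 against 3745 to 4730), and miR-142-5p was lowest there (18131 against 23320 to 27110). miR-223-3p stayed at 5608 to 6093 in all libraries. Most of each sum was miR-21a-5p, at 122999 to 164575, so the sum says little about the other 4 arms. Among markers of other cells, the 4 epithelial arms summed to 152 RPM in LPS replicate 2 and to 63.0 to 79.5 in the other libraries. Of these arms, miR-200a-3p, miR-200b-3p and miR-200c-3p were higher there than in any other library. miR-141-3p was not, at 20.6 there and 15.4 to 38.0 elsewhere. The lymphocyte marker miR-150-5p was at 49.3 in LPS replicate 2 and at 14.9 to 23.3 elsewhere. The liver, muscle, erythroid and endothelial markers and miR-9-5p, a neuronal marker, each stayed below 8 RPM in every library, with miR-1a-3p and miR-144-3p at 0. The part of these differences in the results was not tested. Fold changes, the SDs of neighbouring pairs and coefficients of variation are given with and without this library. The ranks by similar levels, arm ratio, tails and starts use all libraries.

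miR-191-5p was among the most abundant miRNAs of these cells, at 24449.6 to 28509 RPM in 5 of the 6 libraries and lower in LPS replicate 2. It stood at 28509, 27310.4 and 25089.6 RPM in control replicates 1, 2 and 3. The LPS replicates were at 28160.2, 19618 and 24449.6. LPS replicate 2 was thus the lowest library and LPS replicate 3 was also just below the control range, while LPS replicate 1 lay inside it. The groups overlapped, at 26969.5 ± 1735 (SD, n = 3) in control and 24076 ± 4283 (SD, n = 3) in LPS samples. By level miR-191-5p ranked between 6 and 10 among the 964 arms in every library. In such bulk libraries, fewer cells that make an miRNA and less of it per cell cannot be told apart. RPM is also a share of hairpin reads, so the level of an arm falls where other arms take more of them. In LPS replicate 2, miR-24-3p had 627304 of the 10913216 hairpin reads, and elsewhere 2754 to 5349 reads. The part of this in the level of miR-191-5p was not tested.

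miR-425-5p, the main product of the second hairpin, was far less abundant and was highest in LPS replicate 2. Its level was 629, 794 and 867 RPM in control replicates 1, 2 and 3. In LPS replicates 1, 2 and 3 it was 648, 1349.9 and 937. LPS replicate 3 lay slightly above the control range and LPS replicate 1 within it, so the groups overlapped (763 ± 122 against 978 ± 353, SD, n = 3 each). It ranked between 57 and 73 among all arms.

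miR-425-3p, the minor arm of Mir425, showed the widest range of the 4 arms. It stood at 27.0, 39.7 and 60.1 RPM in control replicates 1, 2 and 3, from 69, 68 and 142 reads. In the LPS replicates it stood at 27.2, 438 and 56.1, from 86, 4782 and 84 reads. LPS replicate 2 was 7.29 times the highest other library (95% Wilson interval of its level 426 to 451), and the other 2 LPS libraries lay inside the control range. Of all 318 arms tested, 11 (3.46%) were at least 4 times the highest other library in LPS replicate 2, and of the 4 members only miR-425-3p was. The group values were 42.3 ± 16.7 in control and 174 ± 229 in LPS samples (SD, n = 3 each).

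miR-191-3p, the minor arm of Mir191, was the least abundant. Its read counts were 40, 29 and 60 in the control libraries and 55, 238 and 31 in LPS replicates 1, 2 and 3. These correspond to 15.7, 16.9 and 25.4 RPM in control and 17.4, 21.8 and 20.7 in LPS samples, so the LPS range fell entirely inside the control range. The 95% Wilson intervals of these levels reached from 11.5 to 32.7 and overlapped between all 6 libraries. All Wilson intervals here cover counting error only.

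**Figure D1:**
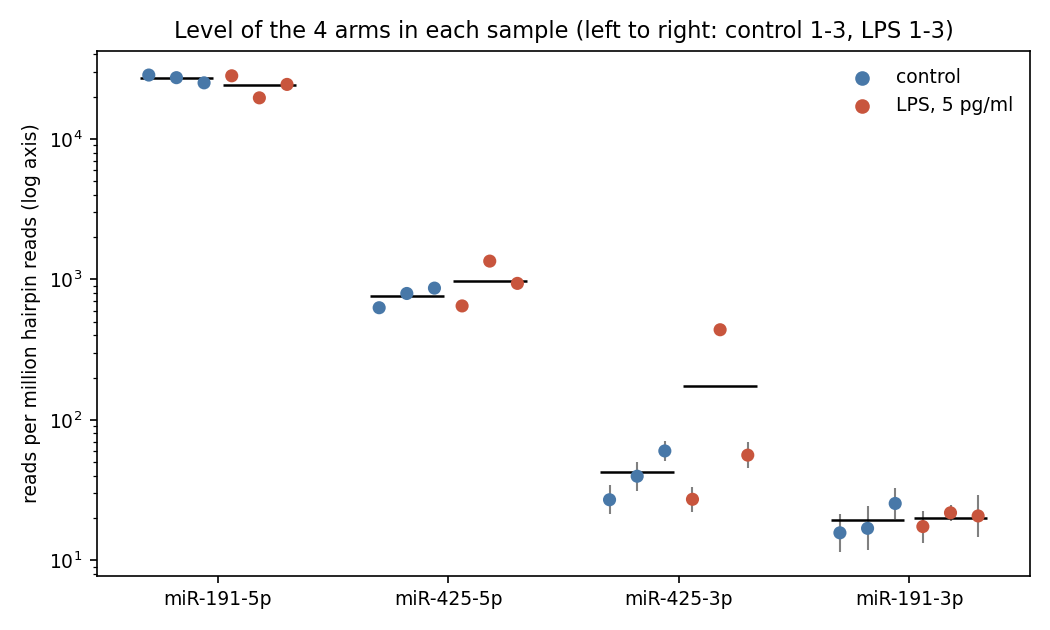
Level of each arm in each sample, in RPM on a log axis (reads scaled to 1000000 hairpin reads), with control samples in blue and LPS samples in red. Points are samples, grey bars are 95% Wilson intervals and black lines are group means (n = 3 each). The order of the 4 arms is the same in all samples, and miR-425-3p of LPS replicate 2 sits at 438, above its other samples at 27.0 to 60.1.

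The order miR-191-5p, miR-425-5p, miR-425-3p and miR-191-3p from highest to lowest held in all 6 libraries, and over the libraries no neighbours in this order overlapped. Levels of different sequences also carry the preferences of adaptor ligation, which were not measured. Together the 4 arms made up 2.92%, 2.82% and 2.60% of hairpin reads in the control replicates and 2.89%, 2.14% and 2.55% in LPS replicates 1, 2 and 3. miR-191-5p supplied 96.0% to 97.7% of the cluster's reads in the other 5 libraries and 91.6% in LPS replicate 2, where miR-425-5p reached 6.30% and miR-425-3p 2.04%.

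The control and LPS groups were compared over all 318 arms that passed the low-count filter, with edgeR's quasi-likelihood test and Benjamini-Hochberg adjustment. None of the 4 members passed an adjusted p of 0.05, where 0 of all 318 arms (0.0%) did, also with DESeq2. At an unadjusted p under 0.05 edgeR called 8 arms (2.52%), and none of them was a member. Nor was any member among the 10 arms (3.14%) whose groups did not overlap.

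The log2 fold change of LPS over control was -0.19 for miR-191-5p (standard error 0.18) and 0.04 for miR-191-3p (standard error 0.23). It was 0.34 for miR-425-5p (standard error 0.26) and 2.05 for miR-425-3p (standard error 1.01). The adjusted p by edgeR was 0.999 for each of the 4, and the median log2 fold change of all 318 arms was 0.01. The value of miR-425-3p rested on LPS replicate 2. Without that library it was -0.11, and with the replicate number as a block it was 1.04 (adjusted p = 0.862 in edgeR's test). Only without the low-count filter did it pass the threshold, at 2.09 (adjusted p = 6.57e-12 in edgeR's test). In that fit 20 of 964 arms passed, all higher in LPS samples, and no fit without the filter left out LPS replicate 2. Without LPS replicate 2, miR-425-5p also had a log2 fold change near 0, at -0.001, and miR-191-5p was at -0.08.

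Samples that share a replicate number were close to each other for the cluster, apart from number 2. Between LPS and control replicate 1, the log2 difference in RPM was -0.02 for miR-191-5p, 0.04 for miR-425-5p and 0.01 for miR-425-3p. Between the replicates numbered 3 it was -0.04, 0.11 and -0.10 for the same arms. Between those numbered 2 it was -0.48, 0.77 and 3.46. For miR-191-3p, which had few reads, the differences were 0.15, 0.36 and -0.29 in replicates 1, 2 and 3.

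The stoichiometry of the cluster was far from equal. For each read of miR-425-5p there were 45.3, 34.4 and 28.9 reads of miR-191-5p in control replicates 1, 2 and 3. The LPS replicates had 43.5, 14.5 and 26.1. The ratio thus differed more between control replicates than between LPS and control replicates of the number 1 or 3, and it was lowest in LPS replicate 2. On the log2 scale the ratio was 5.15 ± 0.33 in control and 4.67 ± 0.79 in LPS samples (SD, n = 3 each), and the groups overlapped.

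Within Mir425 the log2 ratio of the 5p arm to the 3p arm was 4.54, 4.32 and 3.85 in control replicates 1, 2 and 3. The LPS replicates had log2 ratios of 4.58, 1.62 and 4.06, which for LPS replicate 2 is a linear ratio of 3.08. Both arms were higher in LPS replicate 2 than in any other library, but the 3p arm by more, so the arm ratio there was lower. Over the 70 hairpins with a mean of at least 50 reads in each arm, the 5p to 3p ratio of LPS replicate 2 differed from the mean of the other 5 libraries by a median of 0.38 in absolute log2 units. For Mir425 it differed by -2.65, the fourth largest shift by size, after Mir3068, Mir186 and Mir152. Some hairpins met the floor of 50 reads only through LPS replicate 2 itself, so this rank is a description. Among them were Mir3068, whose 5p arm had 2053 reads there and 13 to 16 elsewhere, and Mir186, whose 3p arm had 455 and 5 to 14.

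Within Mir191 the linear ratio of 5p to 3p reads was 1821, 1612 and 988 in the control replicates. It was 1621, 900 and 1180 in LPS replicates 1, 2 and 3. These ratios are uncertain because the 3p arm had 29 to 238 reads. With a mean log2 ratio of 10.35, Mir191 had the second most uneven arms of those 70 hairpins, and Mir425, with 3.83, ranked 34 by the same measure. The floor of 50 reads leaves out hairpins with a rarer minor arm, such as Mir23b, whose 5p arm had 1 to 50 reads. miR-191-3p itself met the floor only through LPS replicate 2, with 29 to 60 reads in the other libraries. The groups overlapped in the arm ratio of Mir191 and in that of Mir425.

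**Figure D2:**
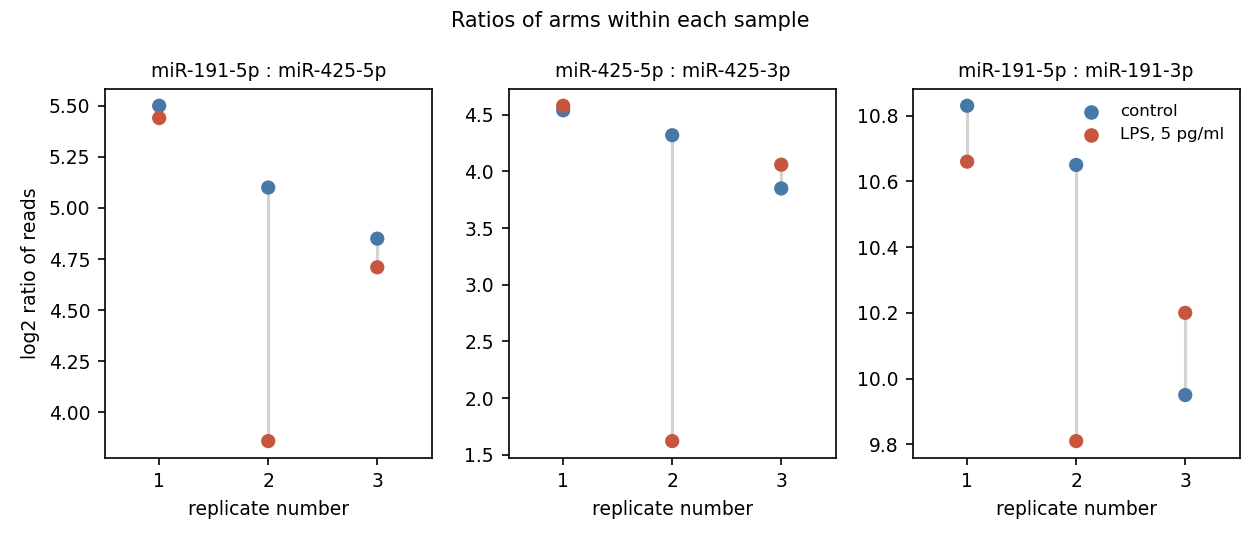
Log2 ratio of reads of 2 arms within each sample, by replicate number, with control samples in blue and LPS samples in red. A grey line joins samples of the same number. The samples numbered 1 and 3 lie close together for the 2 ratios that involve miR-425-5p, whereas LPS replicate 2 lies far below control replicate 2.

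The annotation holds 156 pairs of neighbouring hairpins on the same strand within 1000 bases, and in 35 of them the most abundant arms of both hairpins were distinct, passed the filter and had a mean of at least 50 reads. The SD over the 6 libraries of the log2 ratio of these arms was 0.60 for Mir191 and Mir425, which placed the pair at 29 of 35 from the steadiest, where the median was 0.27. Without LPS replicate 2 the SD was 0.35, the rank 30 and the median 0.22. The steadiest pair was Mir23a and Mir27a, with an SD of 0.04. These SDs are descriptions and include counting error, and 16 of the 35 pairs hold an arm that a further locus also makes. Some pairs met the floor of 50 reads only through LPS replicate 2. Both pairs that hold miR-200a-3p, with 9 to 30 reads elsewhere and 477 there, ranked as less steady than Mir191 and Mir425.

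**Figure D3:**
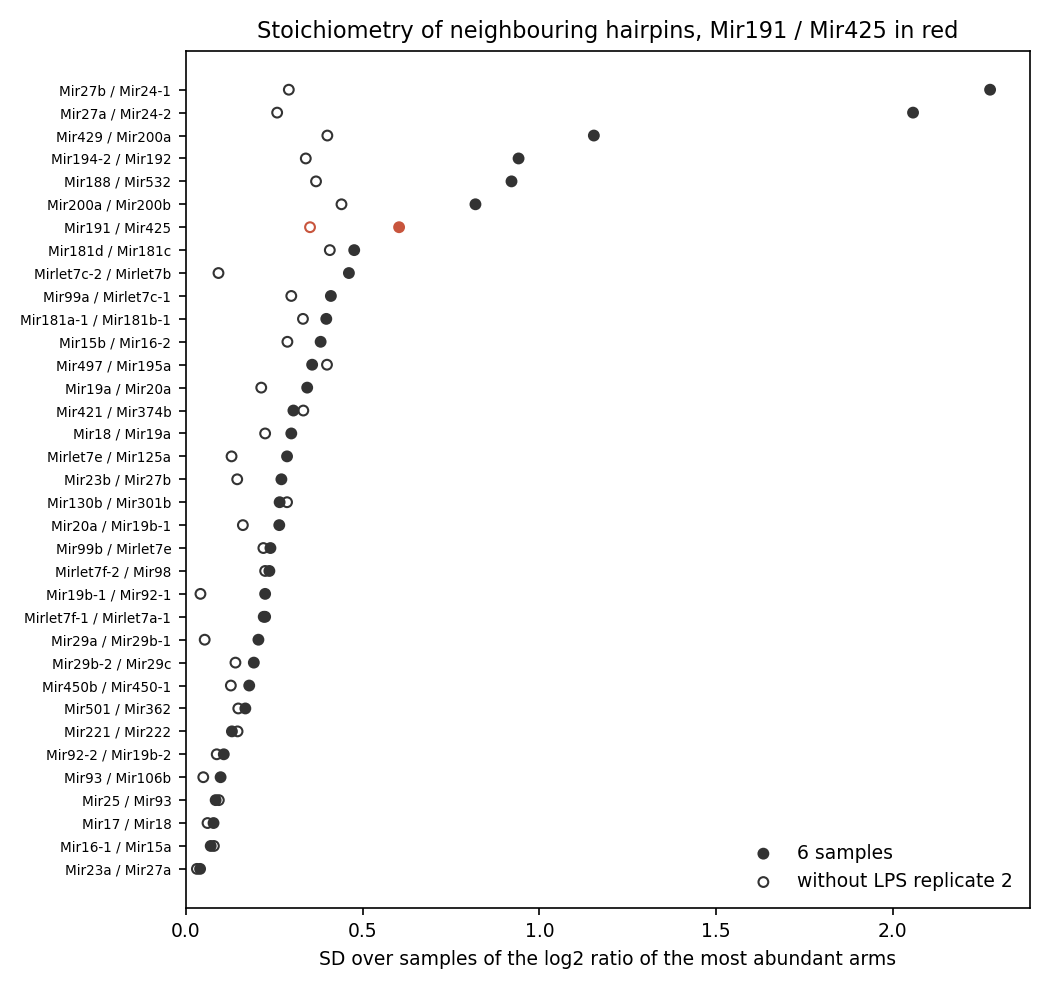
SD over samples of the log2 ratio of the most abundant arms, for 35 pairs of neighbouring hairpins ordered from the steadiest at the bottom. Filled points use 6 samples and open points leave out LPS replicate 2, with Mir191 and Mir425 in red at 0.60 and 0.35.

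Since miR-191-5p often serves as a reference miRNA, its steadiness was set beside that of other miRNAs used in this way. Over the 6 libraries the coefficient of variation of its TMM-normalized level was 15.8%, which ranked 106 from the steadiest among 250 arms with a mean of at least 50 reads, where the median was 17.9%. Without LPS replicate 2 it was 11.4% (rank 104, median 14.2%). miR-425-5p had a coefficient of variation of 28.9%, and of 13.3% without LPS replicate 2. miR-425-3p was at 150.5% and 32.8%, and miR-191-3p at 15.0% and 16.0%. Some of the 250 arms, among them miR-191-3p, met the floor of 50 reads only through LPS replicate 2.

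Of the 12 listed reference miRNAs, miR-186-5p, miR-93-5p, miR-103-3p, miR-25-3p, miR-320-3p, miR-26a-5p, miR-423-3p and let-7a-5p varied less than miR-191-5p over the 6 libraries. Their coefficients of variation ran from 4.4% for miR-186-5p to 13.8% for let-7a-5p. The other 4, miR-16-5p, miR-361-5p, miR-423-5p and miR-24-3p, varied more, from 19.0% to 204.6%. Without LPS replicate 2, where miR-191-5p was at 11.4%, the place of 4 of the 12 changed. miR-423-3p (14.9%) and let-7a-5p (14.1%) then varied more than miR-191-5p, and miR-16-5p (11.3%) and miR-361-5p (10.9%) varied less. miR-24-3p, the most variable over the 6 libraries, was at 14.5% without that library. No test was made of these differences.

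The arms whose levels moved most like the members were found by the root mean square difference of centred log2 levels over the 6 libraries. For miR-191-5p the closest of 249 arms was miR-142-5p, at 0.03, where the median arm was at 0.31. Its level was 23320 to 27110 RPM in the other 5 libraries and 18131 in LPS replicate 2. For each read of miR-142-5p, an abundant miRNA of blood cells, there were 1.04 to 1.10 reads of miR-191-5p in all 6 libraries. The next were miR-378a-3p and miR-450b-5p.

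For miR-425-5p the closest arms were miR-17-5p and miR-20a-5p, which are made from a common cluster, and miR-26b-3p, at 0.05 to 0.07 where the median was 0.41. miR-17-5p was at 295 to 464 RPM in the other 5 libraries and at 618 in LPS replicate 2. For miR-425-3p they were miR-146b-5p, miR-324-5p and miR-186-3p, at 0.20 to 0.36, with a median of 1.35. miR-146b-5p was at 223 to 604 in the other 5 libraries and at 2970.3 in LPS replicate 2. For miR-191-3p they were miR-877-3p, miR-138-5p and miR-423-3p, at 0.11 to 0.12. By this measure miR-191-5p ranked 197 of 249 from miR-425-5p, so over the 6 libraries the main products of the 2 hairpins were not among each other's closest arms. LPS replicate 2, where miR-191-5p was lowest and miR-425-5p highest, is part of this measure, which was not computed without that library.

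The ends of the reads were not used to pick the cluster. miR-191-5p was read mostly as the RefSeq sequence, and next as a form with the following hairpin base at its 3′ end. The most frequent reads are shown, as DNA letters with the seed in capitals, because they differ in the base at an end.
miR-191-5p, RefSeq ends: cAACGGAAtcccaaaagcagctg
miR-191-5p, 1 base longer: cAACGGAAtcccaaaagcagctgt
miR-191-5p, start 1 base downstream: aACGGAATcccaaaagcagctg

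The RefSeq sequence made up 80.7%, 80.6% and 80.3% of miR-191-5p reads in control replicates 1, 2 and 3 and 80.9%, 79.0% and 79.9% in LPS replicates 1, 2 and 3. The longer form made up 13.1% to 13.9% and the form with the later start, which carries another seed, 1.9% to 2.1%. In all, 2.5% to 2.6% of reads had a shifted 5′ end, so the seed of this miRNA was nearly uniform. The share with unmatched 3′ bases was 2.0% to 2.8% in the other libraries and 3.5% in LPS replicate 2, and most such tails were A alone (2.9% of reads in that library). A U added after the RefSeq end cannot be told apart from the T that the hairpin has there, so it counts toward the longer form and not as a tail. The half-width of the 95% Wilson intervals of these shares was at most 0.4 percentage points.

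miR-425-5p also had a fixed start but 4 common 3′ ends, and its most frequent read was 1 base shorter than the RefSeq sequence.
miR-425-5p, 1 base shorter: aATGACACgatcactcccgttg
miR-425-5p, RefSeq ends: aATGACACgatcactcccgttga
miR-425-5p, 1 base longer: aATGACACgatcactcccgttgag
miR-425-5p, 2 bases longer: aATGACACgatcactcccgttgagt

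The shorter form made up 53.0%, 58.7% and 59.3% of miR-425-5p reads in control replicates 1, 2 and 3. In LPS replicates 1, 2 and 3 it made up 50.8%, 70.0% and 61.0%, so it was highest in LPS replicate 2 and lowest in LPS replicate 1. The RefSeq sequence was 12.1%, 10.7% and 9.3% in control and 13.6%, 6.0% and 9.9% in LPS samples. The form 2 bases longer made up 13.5% to 16.3% in the other 5 libraries and 11.1% in LPS replicate 2. Shifted 5′ ends were rare, at 0.8% to 1.2%, with the seed intact in the rest.

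For the 2 main arms, the shares of the RefSeq sequence, of shifted 5′ ends and of unmatched 3′ tails were compared between groups by exact two-sided permutation tests over samples. The difference of LPS minus control was -0.62 percentage points in the RefSeq sequence of miR-191-5p (exact permutation p = 0.40) and -0.90 in that of miR-425-5p (exact permutation p = 0.80). For unmatched tails it was 0.28 (exact permutation p = 0.70) and -0.67 (exact permutation p = 0.50). For shifted 5′ ends it was -0.03 (exact permutation p = 0.80) and -0.01 (exact permutation p = 1.0). The adjusted p of the 6 exact permutation tests was 0.96 to 1.0, and 3 samples against 3 allow no p below 0.1. Within replicate numbers, the unmatched tails of miR-425-5p were lower in LPS than in control samples in all 3 pairs, with differences of -0.34, -1.13 and -0.54 percentage points in replicates 1, 2 and 3. Exact sign flips over the 3 pairs, chosen after seeing the data, gave p = 0.25 for this share, the smallest p they allow, and 0.50 to 1.0 for the other 5 shares.

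**Figure D4:**
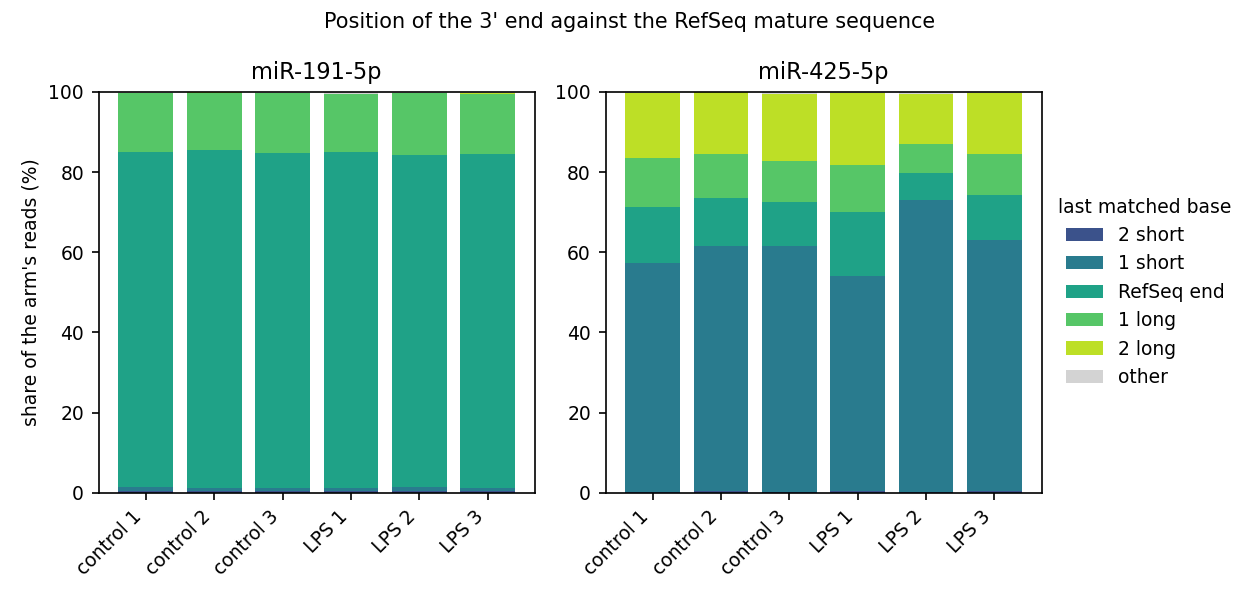
Share of reads by the last base that matches the hairpin, counted from the 3′ end of the RefSeq mature sequence, in each sample for miR-191-5p (left) and miR-425-5p (right). The RefSeq end holds 83.1% to 84.3% of miR-191-5p reads in every sample, whereas the end 1 base short holds most miR-425-5p reads, up to 72.8% in LPS replicate 2.

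The minor arms had loose 5′ ends. The most frequent reads of miR-425-3p began 1 or 2 bases upstream of the RefSeq start, and many ended in a T that is not in the hairpin. They are shown with the seed in capitals, since each start gives a different seed.
miR-425-3p, start 1 base upstream, unmatched T: cATCGGGAatgtcgtgtccgt
miR-425-3p, start 2 bases upstream, unmatched T: cCATCGGGaatgtcgtgtccgt
miR-425-3p, start 1 base upstream, no tail: cATCGGGAatgtcgtgtccgcc

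The start 1 base upstream held 40.6%, 32.4% and 47.9% of miR-425-3p reads in control replicates 1, 2 and 3 and 55.8%, 57.3% and 46.4% in LPS replicates 1, 2 and 3. The start 2 bases upstream held 30.4%, 36.8% and 28.9% in control and 20.9%, 17.9% and 26.2% in LPS samples. The groups did not overlap in the latter share, nor in the share of the RefSeq sequence of miR-425-3p, which was 14.5%, 11.8% and 8.5% in control and 5.8%, 7.0% and 8.3% in LPS samples. These were 2 of the 51 read-end shares with reads over the 4 arms, many of them nested, and both were singled out after their values were seen and were not tested. The share of the start 2 bases upstream rested on 18 to 41 reads in the other 5 libraries, and the 95% Wilson intervals of control replicate 3 (lower bound 22.1%) and LPS replicate 3 (upper bound 36.5%) overlap widely. The share of the RefSeq sequence rested on only 5 to 12 reads in those 5 libraries. Its 95% Wilson intervals in control replicate 3 (4.9% to 14.2%) and LPS replicate 3 (4.1% to 16.2%) nearly coincide. The RefSeq start held only 20.4% to 29.4% of reads in the 6 libraries, 22.7% in LPS replicate 2. No other mature miRNA in the RefSeq table has the seed of either upstream start.

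The read with the upstream start and T tail, at the top of those 3 lines, made up 26.7% of miR-425-3p in LPS replicate 2 and 7.1% to 10.1% elsewhere. The second, with the start 2 bases upstream, made up 14.9% there and 18.6% to 35.3% elsewhere. The make-up of the arm thus differed in the library where its level was highest. That library held 72 distinct miR-425-3p sequences, and the others, with fewer reads, 17 to 26.

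miR-191-3p was read mainly from 1 base downstream of the RefSeq start, at 51.7% to 67.5% of reads in the other libraries and 82.8% in LPS replicate 2. The RefSeq start held 27.5% to 44.8% in the other 5 libraries and 15.5% in LPS replicate 2. With 29 to 60 reads outside LPS replicate 2, the half-width of the Wilson intervals of these shares was up to 17.1 percentage points.

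**Figure D5:**
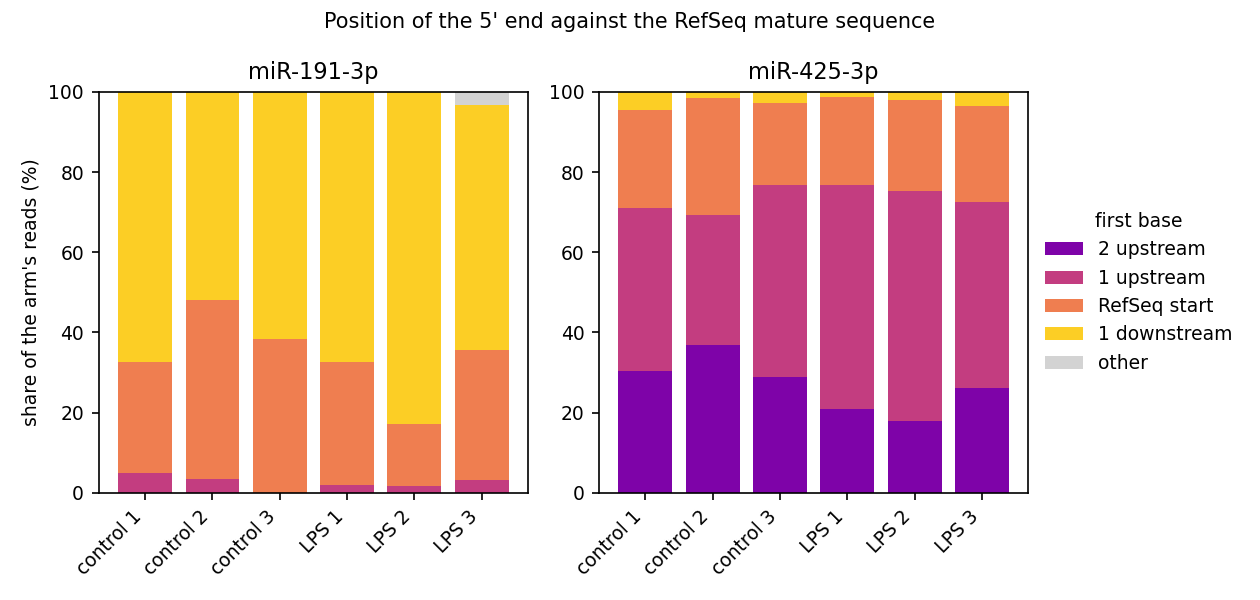
Share of reads by first base, counted from the 5′ end of the RefSeq mature sequence, in each sample for miR-191-3p (left) and miR-425-3p (right). Most miR-425-3p reads begin upstream of the RefSeq start, which holds 20.4% to 29.4%, and most miR-191-3p reads begin 1 base downstream of it.

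Tails made of U alone (read as T) were frequent on miR-425-3p. Terminal uridylyltransferases are known to add U to the 3′ end of hairpin precursors, which is the 3′ end of the 3p arm. For miR-425-3p, U tails made up 53.6%, 55.9% and 45.8% of reads in control replicates 1, 2 and 3 and 41.9%, 51.1% and 41.7% in LPS replicates 1, 2 and 3. For miR-425-5p they made up 2.7% to 5.5%. The form of miR-425-5p 2 bases longer also ends in a T of the hairpin, and reads with this matched end made up 12.5% to 16.6% of the arm in 5 libraries and 370 of 2050 reads in LPS replicate 1. In all 6 libraries miR-425-3p thus carried U tails more often than miR-425-5p, also with all of those reads counted as tails, and the control and LPS ranges overlapped for both arms. For miR-191-3p the share was 11.7% to 21.8% in 5 libraries and 10 of 40 reads in control replicate 1. In both arms of Mir191 the hairpin base after the RefSeq end is T, which hides an added U there, so their U tails are lower limits and were not compared.

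Across 230 arms of single hairpins with a mean of at least 50 reads, the median share of U tails was 2.60% for the 110 5p arms and 13.5% for the 120 3p arms. By the mean over libraries, miR-425-3p ranked 13 of 230 from the highest, at 48.3%. In this count too, a U that matches the next hairpin base is not seen as a tail. The most common start held a mean of 46.7% of miR-425-3p reads, the eighth lowest of the 230 arms, and 65.4% of miR-191-3p reads. It held 97.5% for miR-191-5p and 99.0% for miR-425-5p, where the median arm was at 97.7%. Some of the 230 arms met the floor of 50 reads only through LPS replicate 2, so these ranks and medians are descriptions. Among them were miR-191-3p, with 29 to 60 reads in the other libraries, and the 5p arm of Mir3068, with 13 to 16.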

How the data were processed

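The authors prepared TruSeq small RNA libraries, sequenced them on a HiSeq 1000, removed adaptors (perl scripts, Btrim64) and later used mirAnalyzer for quantification (versions not given in the sources used here; the submitters' processing notes name build mm9). The deposited files precede mirAnalyzer: they list every distinct trimmed sequence with its raw read count, without names or coordinates.

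Reads were matched here to the GENCODE M21 hairpins (GRCm38) as described above, with at least 18 matched bases. Arms were set by the hairpin midpoint, and 2 arms were merged where 50% or more of the reads of each also matched the other. Arm counts were tested with edgeR 4.0.16 in R 4.3.3 (filterByExpr, TMM, quasi-likelihood) without covariates. The code was also run on simulated counts. These had less spread between samples than the real data and no library with outlying levels, so they check the code only. A standard error was taken as the size of a log2 fold change over the root of its F statistic. Samples were grouped by title. Deviations from group means correlated at 0.594, 0.258 and 0.282 across arms for samples of the same number (-0.392 to 0.155 for others). The titles do not say that the numbers pair the samples, and the 0.258 of number 2 is not far above 0.155. Pairing by number is thus an assumption, used for tests only in the replicate block and the sign flips. The main fit and the permutation tests were unpaired. The alternatives were DESeq2 1.42.0, library totals, no low-count filter, a replicate block, whole-read matches, reads of at least 20 nt and each sample left out.

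The members, lists and tests were chosen with earlier results of these data known. Besides the 4 members, the text names for each the 3 arms with the most similar levels, a list of reference miRNAs, neighbouring hairpins, marker miRNAs, and the hairpins ranked above Mir425 by arm-ratio shift, which were chosen after their values were seen. Sequences came from RefSeq and the reads. Listed miRNAs without a mature sequence in the RefSeq table were found by hairpin name, and miR-124-3p was not matched.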

Additional observations from a re-analysis of the deposited data

How the results depend on the processing

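The count of arms past the adjusted threshold was 0 in every fit except without the low-count filter. There edgeR called 20 of 964 arms, all higher, and miR-425-3p was among them with a log2 fold change of 2.09 (edgeR adjusted p = 6.57e-12). With 1 replicate left out, the log2 fold change ranged from -0.337 to -0.082 for miR-191-5p, from -0.077 to 0.236 for miR-191-3p, from -0.001 to 0.557 for miR-425-5p and from -0.108 to 2.56 for miR-425-3p. The lower ends for miR-191-3p, miR-425-5p and miR-425-3p came without LPS replicate 2. miR-191-3p also changed sign without control replicate 1 or 2 and with library totals (-0.039). With the replicate block the values were -0.206, 0.051, 0.278 and 1.042 for miR-191-5p, miR-191-3p, miR-425-5p and miR-425-3p, the count of calls was 0 and no call changed. The block leaves the differences in ratios and read-end shares as they are, and the ratios are given as a description only. For the read-end shares, exact sign flips over the 3 pairs, chosen after seeing the data, gave p = 0.25 to 1.0. The smallest p they allow is 0.25. The group difference in log2 ratio with 1 replicate left out ranged from -0.87 to -0.08 for miR-191-5p to miR-425-5p, from -0.515 to -0.044 for the arms of Mir191 and from -1.395 to 0.081 for those of Mir425, with LPS replicate 2 left out at the upper end of all 3. For read ends, leaving out 1 replicate gave differences from -1.119 to -0.163 percentage points in the RefSeq sequence of miR-191-5p, -2.763 to 1.017 in that of miR-425-5p, -0.073 to 0.001 and -0.12 to 0.073 in shifted 5′ ends, and -0.09 to 0.644 and -1.727 to 0.221 in unmatched tails of miR-191-5p and miR-425-5p. With whole-read matches the shifted 5′ ends of miR-425-5p differed by 0.048. All 6 read-end differences except the RefSeq sequence of miR-191-5p changed sign under some setting. The cause of these changes was not tested. Depth limits miR-191-3p and miR-425-3p most, with under 150 reads in each library but LPS replicate 2.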
